A study of Mus musculus with 7 samples.

Results

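U3 small nucleolar RNA (snoRNA) copies are the transcripts listed under the symbol U3 in the CIRS-seq counts of mouse embryonic stem cells (ESCs). Of 26827 transcripts listed, 44 carried this symbol, and 41 of these were found in the GENCODE vM1 annotation on mm9 as genes of their own. CIRS-seq counts, at each position of a transcript, how often reverse transcription (RT) stopped there, with the position already set to the base that caused the stop. The lysate of E14 cells, a feeder-free mouse ESC line, was treated with Proteinase K and then with DMS, at 50 to 200 mM for 2 min, or with CMCT, at 10 to 50 mM for 20 min, both at 30 °C. A non-treated control (NT) pooled the aliquots without reagent. Each treatment had 2 biological replicates, each pooled over its concentrations, and the RNA-seq library of the same line had none.

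U3 is a box C/D snoRNA that, unlike most of its class, does not guide methylation. It pairs with the precursor of ribosomal RNA through its 5′ domain and takes part, within the small subunit (SSU) processome, in the cleavages that release the 18S rRNA. Its box A lies in that 5′ domain, and the study names box B/C as a region bound by protein in the cell. After Proteinase K, the study reports this region as very highly reactive to the DMS and CMCT treatments. DMS mainly methylates unpaired A and C, and CMCT mainly adds to unpaired U and G, and each adduct stops RT. Sequences below are given in DNA letters, so T stands for U.

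The 41 copies were put into 4 groups. The first held the copies identical to the copy with the most stops, and the others were set by length, chromosome and strand. On chromosome 11, 4 copies of 214 bases were identical, and they lay on the plus strand in introns of Tex14 (mm9, chr11:87256739-87256952, chr11:87262129-87262342, chr11:87275788-87276001 and chr11:87284870-87285083). Another 8 copies of 190 to 214 bases lay alone on other chromosomes or elsewhere on chromosome 11 and matched the chromosome 11 set at 76.1% to 96.3% of aligned bases. A cluster of 22 copies of 89 or 90 bases lay on the minus strand of the X chromosome and held 7 distinct sequences. The last 7 copies, of 86 to 222 bases, matched the chromosome 11 set at 69.0% to 79.2% of aligned bases. In all, the 41 copies held 23 distinct sequences. RefSeq (GRCm38.p6) names a U3 gene on chromosome 10, Rnu3a, 4 on chromosome 11, Rnu3b1 to Rnu3b4, and pseudogenes on chromosomes 2, 12 and 19; these were compared by chromosome and length only.

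The sequences that carry the results are shown here from mm9, 5′ to 3′. In the chromosome 11 copies, capitals mark box A (searched as GATCAT), box C (TGATGA) and box D (the last CTGA), at positions 18 to 23, 157 to 162 and 207 to 210. In the chromosome 19 copy (ENSMUSG00000064400, chr19:4078299-4078512, minus strand) and the chromosome 10 copy (ENSMUSG00000065870, chr10:39978273-39978484, plus strand), capitals mark bases that differ from the chromosome 11 copies.
Chromosome 11 copies: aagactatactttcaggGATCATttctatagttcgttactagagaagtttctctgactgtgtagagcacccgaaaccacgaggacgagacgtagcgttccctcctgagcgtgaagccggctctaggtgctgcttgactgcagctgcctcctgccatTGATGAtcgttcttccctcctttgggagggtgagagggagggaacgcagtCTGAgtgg
Chromosome 19 copy: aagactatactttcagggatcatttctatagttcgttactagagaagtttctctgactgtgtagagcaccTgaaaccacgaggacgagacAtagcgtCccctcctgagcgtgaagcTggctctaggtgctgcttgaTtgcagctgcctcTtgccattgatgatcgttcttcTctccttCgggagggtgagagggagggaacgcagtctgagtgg
Chromosome 10 copy: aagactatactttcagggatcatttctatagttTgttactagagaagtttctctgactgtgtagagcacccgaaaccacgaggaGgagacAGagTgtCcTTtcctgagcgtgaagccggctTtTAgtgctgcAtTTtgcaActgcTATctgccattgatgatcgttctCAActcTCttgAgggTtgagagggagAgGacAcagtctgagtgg

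The chromosome 19 copy is used below as the reference copy, because it is the U3 transcript for which the study had a known structure. It differed from the chromosome 11 copies at 8 bases, and the 70 bases from its 5′ end were the same. GATCAT was present in 39 of the 41 copies, TGATGA in 10 and CTGA in 37. Short and diverged copies are shown by the X chromosome cluster sequence (12 identical copies, here chrX:144450293-144450382, minus strand), the chromosome 6 copy of 86 bases (ENSMUSG00000089295, chr6:114953065-114953150, plus strand) and the chromosome 11 copy of 222 bases (ENSMUSG00000088309, chr11:86130768-86130989, plus strand). Capitals mark the stretch from the 5′ end that the chromosome 11 copies share in the first and second, and the bases around position 37 in the third.
X chromosome cluster: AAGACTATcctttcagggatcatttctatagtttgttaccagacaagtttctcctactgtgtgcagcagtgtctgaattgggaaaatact
Chromosome 6 copy of 86 bases: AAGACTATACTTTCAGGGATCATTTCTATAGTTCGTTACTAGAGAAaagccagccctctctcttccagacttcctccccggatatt
Chromosome 11 copy of 222 bases: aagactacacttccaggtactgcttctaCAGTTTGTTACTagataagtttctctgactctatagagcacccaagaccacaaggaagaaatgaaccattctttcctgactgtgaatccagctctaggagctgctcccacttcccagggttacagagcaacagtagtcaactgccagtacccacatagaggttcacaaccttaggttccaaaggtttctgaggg

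With each genomic position counted once per gene, the libraries held 140186204 to 247369982 RT stops. In the RNA-seq library the 8 ESC markers stood at 15.9 to 221 RPKM (alignments per exon length and library size), while the fibroblast, primitive endoderm, mesoderm and neural markers stood at 3.05 RPKM or less. The origin of a U3 read could often not be told from its sequence. None of the positions of the chromosome 11 copies was followed by 25 bases that occur once in mm9, and 89.4% of their stops lay where the following 25 bases occur only in these 4 copies. The 4 copies were listed with the same counts, apart from single stops. In RNA-seq, 121024 of the 121439 reads in the chromosome 11 set, or 99.7%, were listed at all 4 copies.

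In some copies the replicates of a treatment read nearly the same counts. Over all transcripts, 31.9% (NT), 32.7% (DMS) and 30.1% (CMCT) of positions with at least 10 stops had replicates no more than 1 stop apart. In the chromosome 11 set the shares were 11.5%, 4.73% and 5.39%, and in the chromosome 10 copy they were 12.2%, 10.6% and 11.6%. In the X chromosome cluster they were 74.4%, 68.7% and 87.3%, and in the 7 short or diverged copies 85.2%, 69.7% and 87.3%. The 8 long single copies had 48.5%, 35.7% and 51.3%, and the chromosome 19 copy among them 55.6%, 36.5% and 56.7%. At position 37 of the chromosome 12 copy (ENSMUSG00000064776), for example, both replicates read 792 stops in NT, 295 in DMS and 18448 in CMCT. Positions of this kind were spread over most single copies but were few in the chromosome 11 set and the chromosome 10 copy. Small counts lie within 1 of each other more easily, and depth was not matched. The chromosome 11 copies held 9827 stops per base over all libraries and the chromosome 10 copy 1173, against 9.69 to 19.9 in the X chromosome cluster. Over positions 1 to 39 the chromosome 11 and reference copies differed by the same number of stops in both replicates, within 2, at 39 of 39 positions in each treatment. The summed differences were 550 and 549 in NT, 287 and 289 in DMS, and 6290 and 6290 in CMCT.

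U3 stops came chiefly from the chromosome 11 set. Each of its copies held 309833 and 157492 stops in NT, 203917 and 227005 in DMS, and 709302 and 495469 in CMCT, replicates 1 and 2 (ENSMUSG00000070168; the other 3 copies differ by at most 1). NT replicate 1 exceeded NT replicate 2, and both CMCT libraries exceeded all others. In stops per 1000000 of the library's stops (CPM) and per 1000 bases of transcript, the chromosome 11 copies stood at 4513 to 16516, and the chromosome 10 copy, the next in total count, stood at 852 and 586 in NT, 483 and 659 in DMS, and 1666 and 2331 in CMCT. The 8 long single copies ranged from 115 to 2331 on that scale, the X chromosome cluster from 3.49 to 38.4, and the short or diverged copies from 0.806 to 297. The chromosome 11 and long single groups did not overlap, while the X chromosome cluster and the short or diverged copies did. The chromosome 11 set was defined from the copy with the most stops, so its place at the top followed from that choice. The chromosome 11 set took 82.9% to 92.3% of all U3 stops in a library, a share in which a read listed at all 4 copies counts 4 times.

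**Figure D1:**
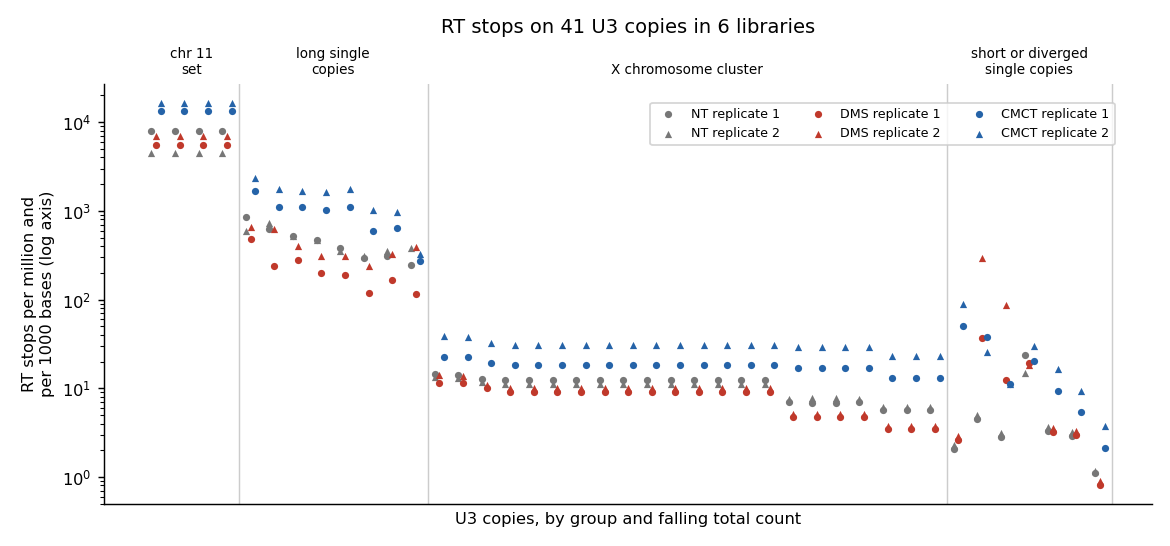
Each point is 1 U3 copy in 1 library, in CPM of RT stops per 1000 bases on a log axis; circles are replicate 1, triangles replicate 2, and colors mark NT, DMS and CMCT. The chromosome 11 set, defined from the copy with the most stops, stands at 4513 to 16516 over the libraries, above the 8 long single copies at 115 to 2331.

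In most minor copies, stops lay mainly near the 5′ end. Positions 1 to 39 held 7.27% of the stops of a chromosome 11 copy but 89.6% of those of the reference copy, a median of 77.3% in the 8 long single copies and 100% in each copy of the X chromosome cluster. In the reference copy, position 39 held 36 and 33 stops in NT, 26 and 6 in DMS, and 18 and 2 in CMCT, and position 40 held none apart from 2 in DMS replicate 1. Its first difference from the chromosome 11 copies is at position 71, within 31 bases of position 40. Over columns 1 to 39, the log2 counts of the 8 long copies correlated with those of the chromosome 11 copies with a median Pearson's r of 0.98 over copies and libraries, and over columns 40 to 189 with a median of 0.44. These values describe the sites of single libraries, which share reads between copies. Where the following 25 bases occur once in mm9 lay 7.94% of the stops of the reference copy, 49.4% of those of the chromosome 10 copy and 65.4% of those of the chromosome 12 copy, and the 8 long copies ranged from 0.0542% to 65.4%. In RNA-seq, 29020 reads lay in the chromosome 10 copy and 679 of these also in the chromosome 11 set, against 1752 of 1769 for the reference copy and 13320 of 13321 for the copy of 193 bases on chromosome 11 (ENSMUSG00000080664). No RNA-seq alignment lay in 28 of the 41 copies.

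Along the chromosome 11 copies, most stops fell on 4 bases. Positions 89 to 92 held 77.8% and 67.3% of the stops in NT, 69.9% and 65.9% in DMS, and 77.6% and 78.3% in CMCT. At T92 alone, 143229 and 68511 stops were counted in NT, 93446 and 80616 in DMS, and 366556 and 302278 in CMCT. The stop was present without reagent, and in CPM the CMCT libraries exceeded NT there 1.88-fold and 5.13-fold in the 2 replicates. Its neighbors G91, with 64175 and 23795 NT stops, C90, with 18617 and 9357, and A89, with 15022 and 4353, lay next to it on the 5′ side. In the chromosome 10 copy, where the following 25 bases occur once in mm9, A89 held 7037 and 1029 NT stops and C90 held 4879 and 1632. In the reference copy the base at position 91 is A, and it held 3422 and 3421 stops in NT, 79 and 80 in DMS, and 741 and 742 in CMCT. There, all 4 treated libraries lay below NT, unlike at G91 of the chromosome 11 copies. Profiles of the chromosome 11 copies correlated, on the log2 scale over 189 positions, with r of 0.96 between the NT replicates, 0.88 between those of DMS and 0.97 between those of CMCT. Libraries of different treatments correlated at 0.76 to 0.91, so these values largely describe stops that the treatments share.

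**Figure D2:**
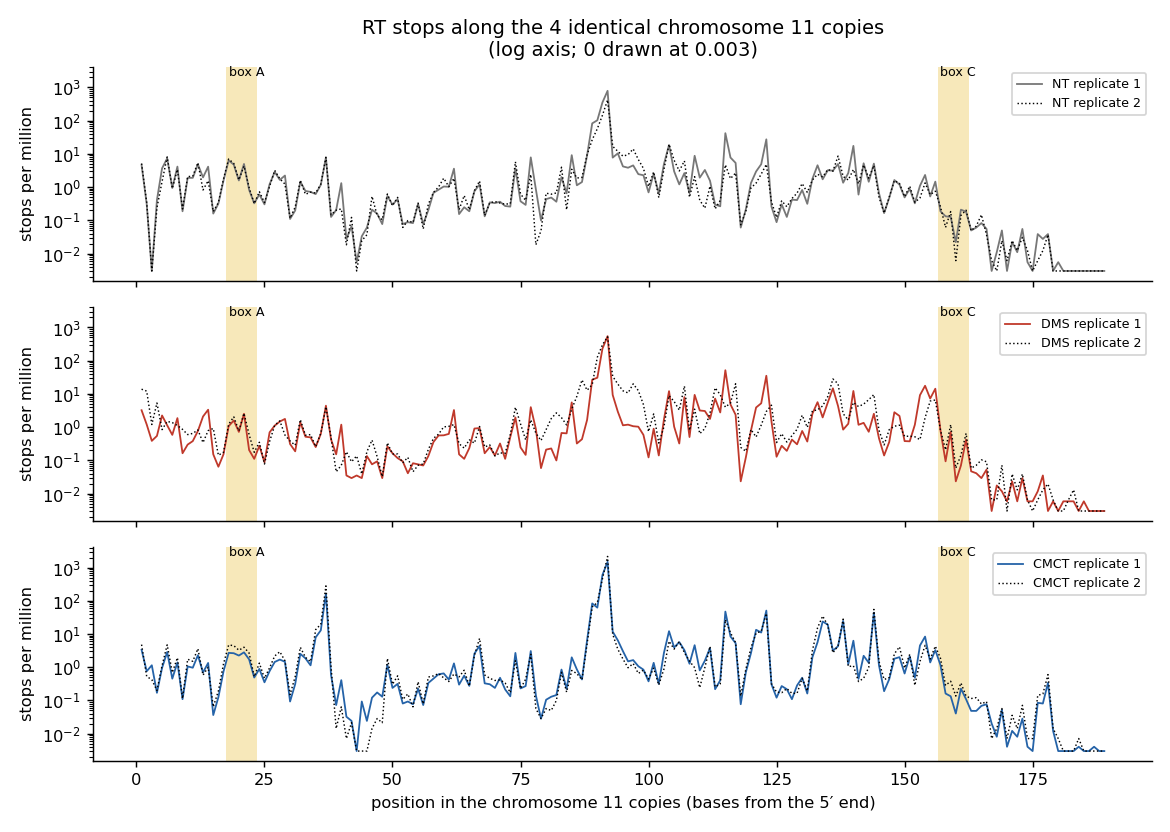
RT stops, in CPM, at positions 1 to 189 of the 4 identical chromosome 11 copies, on a log axis, with 1 panel per treatment, a solid line for replicate 1 and a dotted line for replicate 2; boxes A and C are shaded. The peak at positions 89 to 92 stands in all 6 libraries, and the peak at position 37 stands out in CMCT.

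Among the positions highly reactive to CMCT (defined below), T37 in the 5′ domain held the most stops, and it was singled out for that reason. At T37 of the chromosome 11 copies, 1425 and 1283 stops were counted in NT, 755 and 631 in DMS, and 40938 and 39290 in CMCT. In CPM, CMCT exceeded NT 21.1-fold and 35.6-fold, and DMS stood at 0.56 and 0.52 of NT. Next to it on the 5′ side, T36 held 213 and 201 NT stops against 3187 and 2760 in CMCT, and G35 held 112 and 108 against 1963 and 1895. These 3 positions were chosen for high CMCT reactivity, so CMCT counts above NT followed from the choice. Both CMCT replicates also lay above both DMS replicates there.

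The same stop was also listed in copies where the 25 bases after it occur once in mm9, which does not by itself show where the reads came from. T37 of the chromosome 12 copy, where the following 25 bases occur once in mm9, rose from 792 to 18448 stops in both replicates, 17.1-fold and 27.1-fold in CPM. In the chromosome 2 copy (ENSMUSG00000065883) it went from 108 and 108 to 5245 and 5244, and in the chromosome 11 copy of 222 bases from 48 and 48 to 2268 and 2267. In the last copy it took 81.9% of all CMCT stops. Of the 41 copies, 9 had their largest CMCT count at this column, namely all 8 long single copies and the copy of 222 bases, and in the chromosome 11 set it ranked behind T92 and G91. In the X chromosome cluster the column is also T, but at most 10 CMCT stops were counted there per replicate. The counts of the chromosome 12, chromosome 2 and 222-base copies at this site differed by at most 1 between replicates. In RNA-seq, 56 of the 68 reads in the chromosome 12 copy also lay in the chromosome 11 set. No alignment lay in the chromosome 2 copy, and 3 reads lay in the 222-base copy, none of them also in the chromosome 11 set. Whether the stops in these copies came from reads of other copies was not tested.

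**Figure D3:**
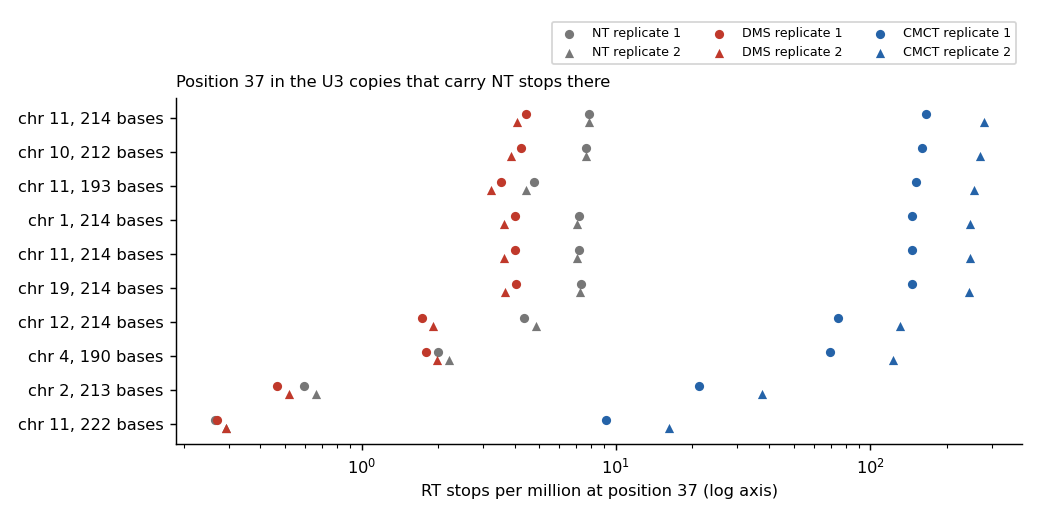
RT stops, in CPM, at position 37, on a log axis, for the U3 copies that carry NT stops there, 1 line per copy and with the identical chromosome 11 copies drawn once; circles are replicate 1 and triangles replicate 2. In each copy both CMCT points lie to the right of the NT and DMS points.

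Reactivity was put on the study's scale. With 1 added, each count was taken relative to the transcript's mean count. The log2 ratio of treated to NT, set to 0 where negative or without a treated stop, was scaled to its 90th percentile and called high above 0.7. Each transcript has its own 90th percentile, so positions at or above it are high by construction wherever it is above 0. The shares with both replicates summed are therefore set in part by the scaling. In the chromosome 11 copies, 33 of 189 positions, or 17.5%, were highly reactive to DMS with both replicates summed, beside 9.44% over all covered transcripts, with 32 and 26 in the replicates alone and 12, or 6.35%, in both replicates. The share of positions high in both replicates over all covered transcripts was 3.88% for DMS. Covered transcripts had at least 1 stop per base summed over the DMS and CMCT libraries, while a chromosome 11 copy had 9827 over all libraries. Positions without a treated stop count as 0, so these shares, and those by base below, also depend on depth, which was not matched. CMCT gave 21 highly reactive positions with both summed, or 11.1% beside 9.87%, with 23 and 22 in the replicates alone and 13, or 6.88%, in both, against 4.45% over all covered transcripts. Between the replicates, the reactivities of the 189 positions correlated with r of 0.45 for DMS and 0.61 for CMCT, lower than the counts did. The summed counts depended on the scaling: with the 90th percentile taken over positions above 0 they were 16 for DMS and 8 for CMCT, and with library totals in place of the transcript mean 33 and 34, for which the share over all transcripts was not computed.

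DMS marked chiefly A. Of the 12 DMS positions, 10 were A, which is 25.6% of the 39 A measured, beside 8.46% of A over all covered transcripts. None of the 48 C was high in both replicates, beside 3.19% of C over all covered transcripts. At so low a share, none among 48 does not set C of these copies apart. A113 held 54 and 36 stops in NT against 1236 and 2346 in DMS, 24.3-fold and 69.0-fold in CPM. A136 held 566 and 489 in NT against 2515 and 4341, and A155, close to box C, held 95 and 97 against 1242 and 942. The other A high in both were at positions 2, 43, 45, 114, 124, 141 and 159. The 2 that were not A were G3 and T156. At A2, DMS replicate 2 read 1875 stops and replicate 1 only 206, against 57 and 56 in NT.

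CMCT marked chiefly T. Of its 13 positions, 9 were T, 3 were G and 1 was A38, next to T37. The 9 are 17.0% of the 53 T measured, beside 6.79% of T over all covered transcripts. The 3 G are 6.12% of the 49 G measured, beside 3.23% of G. Downstream of T92, T144 held 923 and 728 stops in NT against 10845 and 7702 in CMCT, T138 held 246 and 341 against 6135 and 3933, and T134 held 312 and 332 against 5876 and 4855. G135 stood at 583 and 554 in NT and 4726 and 2566 in CMCT. Since these positions were chosen for high CMCT reactivity in both replicates, CMCT counts above NT followed from the choice. The remaining 5 were G3, T121, T157, T177 and T178. No stop was counted at G3 in either NT library, with 66 and 185 in DMS and 283 and 59 in CMCT.

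**Figure D4:**
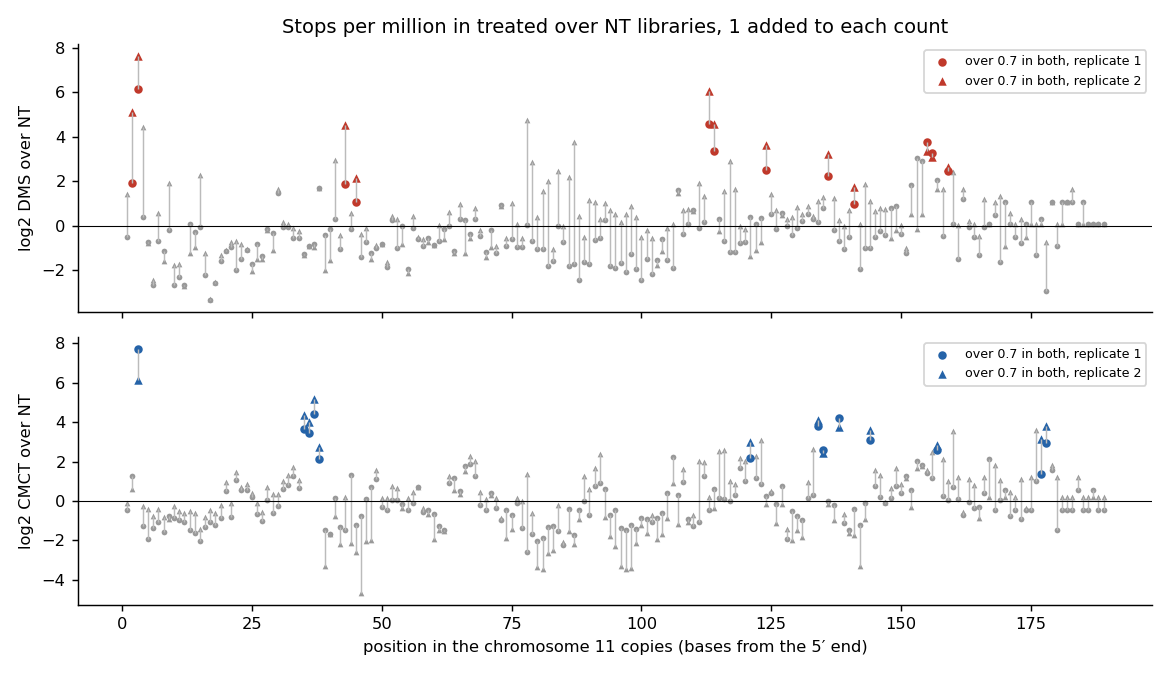
The log2 ratio of treated over NT stops, in CPM, at each position of the chromosome 11 copies, with 1 added to each count, for DMS (top) and CMCT (bottom); circles and triangles are the replicates, joined by a line, and colored points are positions over 0.7 in both. Colored CMCT points gather at positions 35 to 38 and 134 to 144, and DMS points lie mainly downstream of position 112.

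In the chromosome 11 copies, box C held 1 base high in both replicates for each reagent and box A held none. Of all 189 positions, 6.35% were high in both replicates for DMS and 6.88% for CMCT, so none among 6 bases does not set box A apart. Over the 6 bases of box A, 3412 and 3165 stops were counted in NT, 1061 and 1143 in DMS, and 3117 and 2740 in CMCT, and none of its bases was highly reactive to either reagent in both replicates. Mean reactivity over box A was 0 for DMS and 0.00308 for CMCT. Over box C, 156 and 139 stops in NT stood against 365 and 473 in DMS and 454 and 440 in CMCT. A159 was high for DMS and T157 for CMCT, and the mean reactivities over box C were 0.669 and 0.333. In the reference copy, box C held only 8 and 9 stops in NT, 10 and 11 in DMS, and 61 and 60 in CMCT, with mean reactivities of 0.129 and 0.333 and 1 base high in both replicates for each reagent. Its box A held 3216 and 2969 in NT, 971 and 1055 in DMS, and 2830 and 2452 in CMCT, and no base was high. Box D lies within the last 25 bases, which were not measured here. Box B was not searched for, so the values of box C cover only part of the box B/C region that the study reports as very highly reactive.

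The minimum free energy fold of the chromosome 11 sequence, made without reactivities, had 72 base pairs. Of the 46 residues highly reactive to DMS or CMCT, 21 were unpaired in it, 45.7% (95% Wilson interval 32.2 to 59.8), beside 46 of the 143 other residues, 32.2% (25.1 to 40.2). In the reference copy the shares were 29 of 64, 45.3% (33.7 to 57.4), and 37 of 125, 29.6% (22.3 to 38.1). The intervals overlap in both copies, and they cover counting error only, while neighboring residues share pairs. The known U3 structure was not used here. On it, the study located most highly reactive residues of the reference transcript in single strands. For other RNAs, the study found folds made without reactivities less like the known structures than folds guided by them.

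The reference copy gave a reactivity profile of its own only in part. It had 28 positions highly reactive to DMS in both replicates, 14.8% of 189, beside 3.88% over all covered transcripts. For CMCT it had 20, or 10.6%, beside 4.45%. In this copy 55.6% (NT), 36.5% (DMS) and 56.7% (CMCT) of positions with at least 10 stops had replicates no more than 1 stop apart. Its replicates may therefore not be independent, and being high in both is then no separate check. Only 11 of the 28 and 17 of the 20 had at least 10 treated stops in each replicate, and 10 and 4 had no NT stop. For CMCT, 10 positions were shared with the chromosome 11 copies, which is 76.9% of the 13 there and 50.0% of the 20 here, and 5 of them lay in the first 39 bases. For DMS, 3 positions were shared, 25.0% of 12 and 10.7% of 28. Its 5 positions with the most NT stops were A91, T37, T6, G18 and T12. T6 held 1327 and 1323 stops in NT, 195 and 229 in DMS and 709 and 660 in CMCT, G18, the first base of box A, held 1106 and 1101, 169 and 175, and 629 and 611, and T12 held 876 and 884, 130 and 128, and 566 and 506. At these 3 the DMS libraries lay lowest and the NT libraries highest. CMCT rose at T37 from 1326 and 1182 to 36068 and 34420. At position 71, the first base by which this copy differs, both reagents passed 0.7, but with 3 and 3 DMS stops and 16 and 17 CMCT stops. Of its 28 DMS positions 13 were A, 8 T, 4 C and 3 G, and of its 20 CMCT positions 9 were T, 4 A, 4 C and 3 G. From position 40 on, the CMCT positions shared with the chromosome 11 copies were T121, T138, T144, T157 and T178, and the shared DMS position was A136.

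For each copy, total stops in treated and NT libraries were set against each other with the quasi-likelihood test of edgeR, fitted to 13216 features in all 6 libraries with Benjamini-Hochberg adjustment. Folds of this fit are scaled by TMM, unlike levels in CPM, and the TMM factors were 0.737 to 0.881 in NT and 1.02 to 1.22 in the treated libraries. The p-values measure the spread between these 2 libraries per treatment. Where a library was left out, its treatment kept 1 library, which was assumed to vary like the other treatments, so that these treatments alone gave the spread. Both comparisons use the same NT libraries. With DMS, 2 of 41 copies passed an adjusted p of 0.05 as higher and 11 as lower, that is 4.88% and 26.8% of the copies, while 13.8% of all genes passed as higher and 12.5% as lower. The 11 lower copies held 7 distinct sequences. The median log2 fold change was -0.84 over the 41 copies and 0.01 over all genes. With CMCT, 13 copies with 9 distinct sequences passed as higher, 31.7%, and none as lower, while 15.0% of all genes passed as higher and 13.9% as lower. The median was 0.90 over the copies and 0.11 over all genes. The calls depended on the method and on the scaling. More copies passed with DMS in DESeq2, and with replicate number added to the fit, as listed in the closing section. With library totals in place of TMM, an alternative added after seeing the data, the median of all genes became 0.54 with DMS and 0.49 with CMCT, and that of the copies -0.29 and 1.26. Then 2 copies passed as higher and 0 as lower with DMS, beside 30.6% and 7.37% of all genes, and 38 passed as higher and 0 as lower with CMCT, beside 26.8% and 9.89%. Of the 13 copies called in each comparison, 7 belonged to the X chromosome cluster. In 11 of the 41 copies the replicate totals differed by at most 2 stops in each treatment, and these were 7 of the 13 copies called with DMS and 9 of the 13 called with CMCT, with the 7 of the X chromosome cluster among both. For them the SE and p rest on a spread between libraries that may not be independent. Among the 5 copies in which under 20% of positions were that close (the chromosome 11 set and the chromosome 10 copy), none passed with DMS and 1 with CMCT, in an alternative added after seeing the data. These 5 are also the copies with the most stops. Copies list shared reads and are not independent of each other. Without NT replicate 1 or without NT replicate 2, no copy passed with DMS and 1 passed with CMCT. Without DMS replicate 1, 2 passed with DMS. Without CMCT replicate 1, 29 passed with DMS and 33 with CMCT, and without CMCT replicate 2 the counts were 29 and 4. With counts at positions found once in mm9 alone, 2 of 14 copies passed with DMS and 4 with CMCT. The shares of all genes called in these fits and in those with a library left out are not given here. Such counts therefore cannot be set against a background.

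The chromosome 11 copies, with most of the reads, passed in neither comparison. Their log2 fold change was -0.52 (SE 0.45) with DMS, with an adjusted p of 0.417 in edgeR, and 0.90 (SE 0.45) with CMCT, with an adjusted p of 0.164. In DESeq2 the CMCT change was 0.81 and passed, with an adjusted p of 0.0104. In CPM these copies stood at 1709 and 966 in NT, 1196 and 1474 in DMS, and 2867 and 3534 in CMCT, so NT and DMS overlapped and CMCT lay above both. With library totals the DMS change was -0.0022 (adjusted p = 0.997), and the CMCT change was 1.26 and passed (adjusted p = 0.0224). All copies were also summed to 1 feature, in which a stop listed at several copies counts once for each of them. These sums therefore exceed the number of U3 stops read. They were 1384190 and 760187 in NT, 883271 and 1021976 in DMS, and 3235965 and 2329498 in CMCT. In CPM these were 7633 and 4662, 5181 and 6638, and 13081 and 16617. The groups overlapped between NT and DMS, and both CMCT libraries lay above both NT libraries. The sum changed by -0.59 (SE 0.50, 95% interval -1.56 to 0.39, edgeR adjusted p = 0.412) with DMS and by 0.91 (SE 0.50, -0.07 to 1.89, adjusted p = 0.205) with CMCT on the log2 scale, and DESeq2 called the CMCT sum (0.81, adjusted p = 0.0147). With library totals the sum changed by -0.06 (adjusted p = 0.917) with DMS and by 1.27 (adjusted p = 0.0206) with CMCT. Fewer RNA molecules, a lower yield of reads and fewer stops per molecule cannot be told apart in such totals.

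The 2 copies that were higher with DMS are both on chromosome 6. The copy of 86 bases held 71 and 70 stops in NT, 546 and 3938 in DMS, and 806 and 311 in CMCT, with a log2 fold change of 4.54 (SE 0.72, adjusted p = 0.00109) for DMS and 2.36 (SE 0.67, adjusted p = 0.0206) for CMCT. The copy of 122 bases (ENSMUSG00000088100, chr6:76582652-76582773, plus strand) held 62 and 62 in NT, 259 and 1612 in DMS, and 333 and 192 in CMCT, with a change of 3.46 (SE 0.65, adjusted p = 0.00214) for DMS. The DMS replicates differed widely in both copies. Without DMS replicate 2 the DMS change was 2.32 in the shorter copy and 1.43 in the longer one, and without DMS replicate 1 it was 5.35 and 4.25. Positions 1 to 3 held 93.8% and 98.7% of the DMS stops of the shorter copy and 90.3% and 98.5% of those of the longer one, against 28.2% to 32.3% in NT. From position 4 on, the shorter copy held 34 and 53 stops in DMS against 51 and 50 in NT. These first bases are shared with the chromosome 11 copies, in which positions 1 to 3 held 823 and 4196 stops in DMS and 897 and 896 in NT. Without NT replicate 1 or NT replicate 2, the DMS change lay within 2.32 to 5.35 in the shorter copy and 1.43 to 4.25 in the longer one. Neither copy passed with DMS in these fits, which keep 1 NT library. The CMCT call of the shorter copy was lost without either NT replicate as well.

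The largest falls with DMS were those of the reference copy and the chromosome 12 copy. The reference copy held 18327 and 16219 stops in NT, 7198 and 10279 in DMS, and 53457 and 49131 in CMCT. Of its DMS stops, positions 1 to 3 held 824 and 4195, and the rest 6374 and 6084. It changed by -1.44 (SE 0.38, adjusted p = 0.0133) with DMS and by 1.10 (SE 0.37, adjusted p = 0.0434) with CMCT. Many of its positions had replicates no more than 1 stop apart, as given above. Its SE and p therefore rest on a spread between libraries that may not be independent. At positions whose following 25 bases occur once in mm9, however, the reference copy fell by 1.83 with CMCT (adjusted p = 0.0102), and these include the NT stop at A91. With each library left out in turn, and all positions used, it rose with CMCT by 0.76 to 1.37. The chromosome 12 copy (chr12:103491684-103491897, minus strand), which lies opposite to Slc24a4 outside its exons, held 11489 and 10808 in NT, 4275 and 7969 in DMS, and 31384 and 30289 in CMCT. It changed by -1.33 (SE 0.40, adjusted p = 0.0267) with DMS. Its replicates read equal counts at T37 in each treatment, so the same limit holds for this SE and p. Without NT replicate 1, NT replicate 2 or DMS replicate 1, the DMS calls of both copies were lost, with an adjusted p of up to 0.181 for the reference copy and 0.243 for the chromosome 12 copy. With library totals they were lost as well, at -0.88 (adjusted p = 0.0672) and -0.75 (adjusted p = 0.134). Among libraries left out in turn, the CMCT call of the reference copy was kept only without CMCT replicate 1, with an adjusted p of 0.0114, and reached 0.207 otherwise. At positions found once in mm9 the DMS value of the chromosome 12 copy was -0.53 (adjusted p = 0.507).

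With CMCT the largest rise was that of the chromosome 11 copy of 222 bases, which lies opposite to Med13 outside its exons. It held 83 and 83 stops in NT, 98 and 99 in DMS, and 2768 and 2769 in CMCT, a change of 4.59 (SE 0.33, adjusted p = 1.18e-05). Its replicate totals differed by at most 1 stop, so this SE and p rest on a spread between libraries that may not be independent. Most of these stops were those at T37, described above. The chromosome 10 copy held 32761 and 20242 in NT, 17456 and 21519 in DMS, and 87389 and 69283 in CMCT. It passed with CMCT, at 1.10 (SE 0.38, adjusted p = 0.0446), and did not with DMS, at -0.87 (SE 0.37, adjusted p = 0.101). Its CMCT call held only without CMCT replicate 1 among the libraries left out in turn, at 0.0230, and was otherwise up to 0.264. At positions found once in mm9 it was 0.24 (adjusted p = 0.677). The 3 transcripts absent from the annotation were not tested. ENSMUST00000157495 held 111 and 112 stops in NT, 72 and 70 in DMS, and 368 and 366 in CMCT, and each of the other 2 held 202 and 163, 140 and 140, and 406 and 386.

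**Figure D5:**
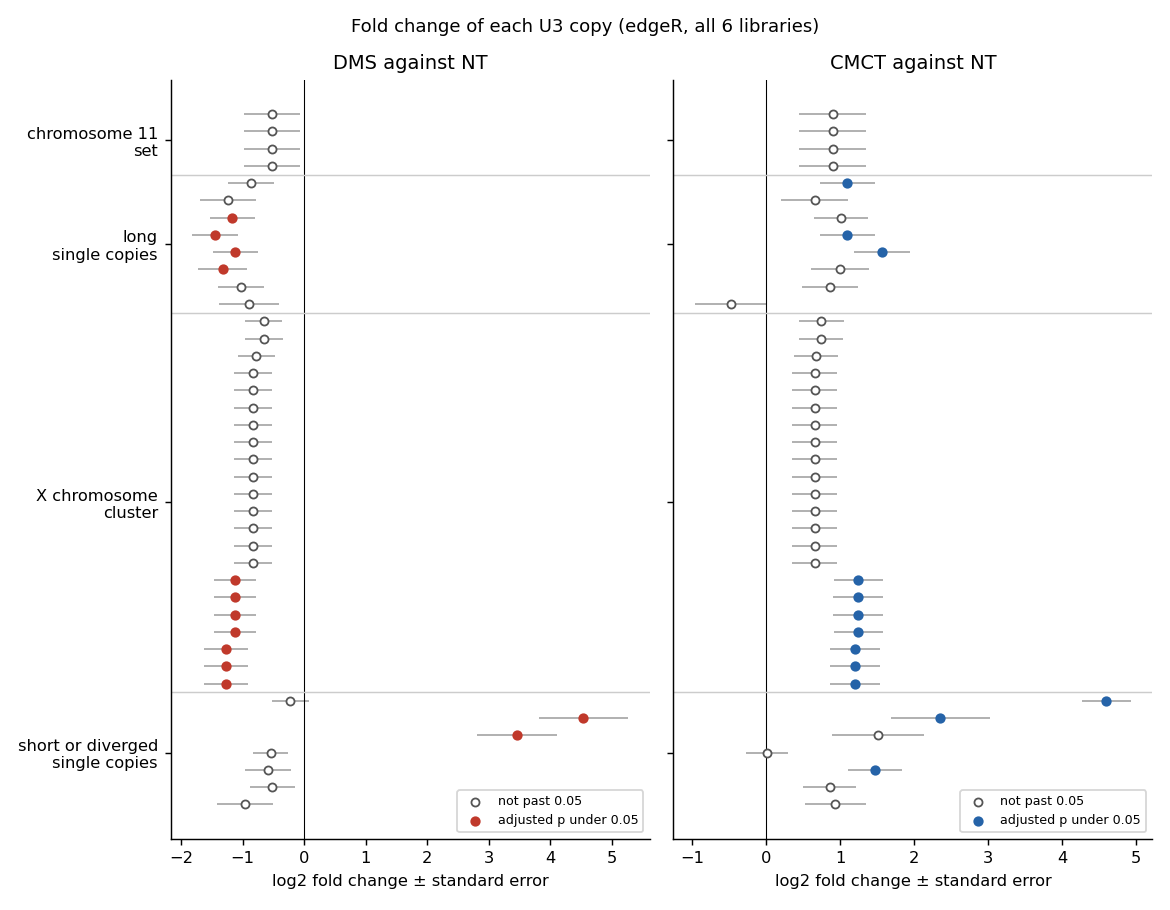
The log2 fold change of each U3 copy with its standard error, for DMS (left) and CMCT (right) against NT, in the order of the groups; filled points passed an adjusted p of 0.05, with TMM scaling. The chromosome 11 set did not pass in either panel (with library totals it passed with CMCT), and the filled points far to the right are the chromosome 6 copies and the copy of 222 bases.

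The proteins that bind or assemble U3 were read as their mRNAs. Of a list of 50 genes of the U3 ribonucleoprotein, the SSU processome and snoRNP assembly, 44 were tested. With DMS none passed as higher and 5 as lower, 11.4%, while with CMCT 5 passed as higher, 11.4%, and 4 as lower, 9.09%. Over all genes, 13.8% and 12.5% passed with DMS and 15.0% and 13.9% with CMCT (higher and lower). Over protein-coding genes alone, 6.94% passed as higher and 13.3% as lower with DMS, and 6.51% and 17.7% with CMCT. The median log2 fold change of the list was -0.25 with DMS and 0.17 with CMCT. Dhx37, an RNA helicase, fell in both comparisons, from 23460 and 23263 stops in NT to 9890 and 9456 in DMS (-1.75, SE 0.33, adjusted p = 0.00217) and to 11318 and 8509 in CMCT (-1.76, SE 0.33, adjusted p = 0.00215). Wdr36, an SSU processome protein, fell from 9133 and 8356 to 4594 and 4148 (-1.47, adjusted p = 0.00403) and to 5853 and 4607 (-1.25, adjusted p = 0.0107). At positions found once in mm9, neither passed, and both turned to higher with CMCT, at 0.16 and 0.58. Nop58, a core box C/D protein, rose with CMCT from 9.03 and 6.52 CPM to 16.8 and 19.2 (0.84, SE 0.24, adjusted p = 0.0215), and Mphosph10, a U3-specific protein, from 2.66 and 1.67 to 4.76 and 5.11 (0.83, SE 0.25, adjusted p = 0.0297). Without NT replicate 2 or CMCT replicate 2 or DMS replicate 2 both of these calls were lost, as was that of Nop58 without NT replicate 1, and the CMCT call of Wdr36 was lost without NT replicate 2 or CMCT replicate 1, with adjusted p of up to 0.149 (Nop58), 0.244 (Mphosph10) and 0.0646 (Wdr36). The number of list genes called ranged from 2 to 7 with DMS and from 1 to 8 with CMCT over the libraries left out. With library totals, 7 of the 44 passed as higher and 2 as lower with DMS, beside 30.6% and 7.37% of all genes. With CMCT 14 passed as higher and 1 as lower, beside 26.8% and 9.89%. The CMCT value of Wdr36 did not pass with library totals (-0.85, edgeR adjusted p = 0.0561).

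Across the 6 libraries, the features most like summed U3 in TMM-scaled log2 CPM were Ahnak2 (r = 0.990), the box C/D snoRNA Snord45c (r = 0.989) and a microRNA gene, ENSMUSG00000093308 (r = 0.984), out of 13175 features compared over 6 libraries that share their treatments. With library totals in place of TMM these 3 also had the highest r, at 0.987 to 0.993. Snord45c and the microRNA gene were scarcely counted, at -1.62 to 1.16 and -2.28 to -0.41 in TMM-scaled log2 CPM, against 12.1 to 13.9 for summed U3.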

How the data were processed

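RT stops were measured by CIRS-seq in 6 libraries of E14 cells (NT, DMS and CMCT, 2 biological replicates each), with rRNA depletion and random priming, and 1 unstranded RNA-seq library was read for levels. The authors aligned reads with Bowtie to mm9 carrying E14 variants, and deposited, for each transcript position, counts of RT stops that were not normalized; their RNA-seq alignments (TopHat2 2.0.6) were counted here over exons and copies. The pooled tables of the authors were not used. Transcripts with the symbol U3 were taken, 3 without an annotated gene were left untested, and each genomic position was counted once per gene. Libraries held 140186204 to 247369982 stops. Positions within 25 bases of the 3′ end were left out of reactivities.

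Counts were tested with edgeR 4.0.16 (quasi-likelihood, TMM, Benjamini-Hochberg, adjusted p threshold 0.05) on all 6 libraries, after tests on simulated counts. DESeq2 1.42.0, its size factors, no filter, a replicate block, each library left out and positions found once in mm9 were alternatives, and library totals in place of TMM were added after seeing the data. Folds used RNAfold 2.7.2. Copies named were the 5 with the most counts and the 2 largest changes in each direction among those called, and partner genes the 2 largest in each direction. The members and lists were chosen with earlier results of these data known. The labels tie no replicate number to a lysate shared between treatments, so the fit without a block was the main one.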

Additional observations from a re-analysis of the deposited data

How the results depend on the processing

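Of the results that answer a comparison, 75 values stayed within their limits under an alternative, 37 moved and 2 passed the threshold. With library totals in place of TMM, an alternative added after seeing the data, copies called were 2 with DMS and 38 with CMCT, list genes called were 9 and 15, summed U3 with CMCT was 1.27 and passed (adjusted p = 0.0206), and the copy of 222 bases with DMS, -0.22 and not called in the report, was 0.33. U3 copies called with DMS, 13 in the report, numbered 32 with DESeq2, 29 with the replicate block, 2 at positions found once in mm9, 0 among the 5 copies with few equal counts, and 0 to 29 with 1 library left out. Those called with CMCT, also 13, numbered 7 with DESeq2 size factors, 21 with the replicate block, 4 at positions found once, 1 among the 5 copies, and 1 to 33 with 1 library left out. List genes called with DMS, 5 in the report, were 17 with DESeq2, 9 with the replicate block, 1 at positions found once and 2 to 7 with 1 library left out, and with CMCT, 9 in the report, 15 with DESeq2, 1 at positions found once and 1 to 8 with 1 library left out. Summed U3 with CMCT passed with DESeq2 (0.81, adjusted p = 0.0147; over alternatives 0.0147 to 0.675). At positions found once in mm9 the reference copy with CMCT was -1.83, Dhx37 0.16 and Wdr36 0.58, all reversed. Highly reactive positions of the reference copy, 48 for DMS and 27 for CMCT, were 30 for DMS with library totals in place of transcript means, and 14 and 11 when scaled over positions above 0, where the unpaired share was 62.5%. In the chromosome 11 copies, 33 and 21 became 16 for DMS and 8 for CMCT on that scale, and 34 for CMCT with library totals. The causes were not tested. Deviations of same-numbered libraries correlated at 0.55 (NT and DMS), 0.01 (NT and CMCT) and -0.11 (DMS and CMCT), and the labels tie no number to a shared lysate. The median of all log2 changes was 0.01 with DMS and 0.11 with CMCT under TMM, 0.54 and 0.49 under library totals, and 0.0098 and 0.0087 under DESeq2 size factors. Since none of the chromosome 11 copies' positions is followed by 25 bases found once in mm9, their stops cannot be assigned to 1 of the 4 copies at any depth.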
